A study of Mus musculus with 4 samples.

Results

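Alveolar type 1 cells with little or no fibroblast RNA were selected on measured transcript levels from 1 pool of sorted mouse lung cells. Barcodes needed 500 genes or more and no more than 10% of UMIs from mitochondrial genes (UMIs are unique molecular identifiers, each standing for 1 captured transcript). They also needed Ager at 5000 CPM or more and Hopx at 3000 CPM or more (CPM, UMIs of a gene per 1000000 UMIs of the cell), Sftpc under 5% of UMIs, no Ptprc or Tcf21 UMI and at most 2 Mfap4 UMIs. Of 11118 barcodes, 9391 passed the limits on genes and mitochondrial UMIs, and 121 of these met the rule, 1.29% (exact binomial 95% interval 1.07 to 1.54%). The cells set against them were 2012 alveolar type 2 cells, 21.4% of those kept, with Sftpc at 5% or more of UMIs and at least 1 Lamp3 UMI.

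The cells were sorted from lungs of mice about 8 weeks old as lacking surface CD45 and CD31. Every mouse carried 1 copy of Gli1-CreERT2, a tamoxifen-activated recombinase under control of the Gli1 locus, and 1 copy of the Rosa26 mTmG reporter, and had been given tamoxifen. Labels put all 4 samples in 1 group, and the deposited matrix pools their cells without saying which cell came from which sample. The matrix is therefore 1 sample with no replicates. No test was made, cells were not treated as replicates, and every interval below is a 95% interval that covers counting error only. Levels of a set are UMIs summed over its cells, again as CPM, and a ratio is the type 1 level over the type 2 level. Counts are of transcript 3′ ends, so they were not divided by gene length.

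Alveolar type 1 cells are very thin, wide cells that cover most of the gas-exchange surface, and each is joined to the capillary below by a shared basement membrane. Alveolar type 2 cells are cuboidal, make and store surfactant, and act as progenitors of type 1 cells after injury. Ager encodes the receptor for advanced glycation end products and Hopx a homeodomain protein without DNA binding, and both are standard type 1 markers. Rtkn2 encodes an intracellular signalling protein and Akap5 a scaffold for protein kinase A, and neither was used by the rule.

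The levels that chose the cells are description only. Ager (chromosome 17, 34597862 to 34600936, plus strand, mm10) ran from 5855 to 41682 CPM in single type 1 cells, with a median of 21382. Among cells that met the other limits, the nearest one left out had 2688. Hopx (chromosome 5, 77086988 to 77115121, minus strand) ran from 3398 to 27959 with a median of 12921, and the nearest one left out had 2197. Only 1 cell met all other limits with too little Hopx, and 6 did so with too little Ager. Sftpc reached at most 0.849% of UMIs in type 1 cells, while the 11 cells left out on Sftpc alone started at 6.03%. Mfap4 was at 0 UMIs in 99 cells, at 1 in 20 and at 2 in 2. A further 56 cells met every limit but those on Tcf21 and Mfap4.

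Rtkn2 and Akap5, which the rule did not use, matched the label. Rtkn2 (chromosome 10, 67979570 to 68059740, plus strand) had a UMI in 110 of 121 type 1 cells (90.9%), against 5.96% of type 2 cells. Its summed level was 1116 CPM in type 1 cells and 15.2 CPM in type 2 cells, a ratio of 73.4 (64.7 to 83.5). Akap5 was at 868 CPM in type 1 and 40.8 CPM in type 2 cells, a ratio of 21.3 (19.2 to 23.5). In single type 1 cells Akap5 ran from 0 to 4171 CPM with a median of 806, and it was at 0 in 8 cells. All 22 measured genes of a type 1 identity list of 24, which leaves out Ager and Hopx, reached a ratio of 2, against 22.8% of all 12343 genes measured, meaning genes with at least 30 UMIs over both sets. Those 22 genes together made up 3.65% of UMIs in type 1 cells and 0.252% in type 2 cells. That list was chosen with earlier results of these data known, so its count is description only. The authors' deposited table gives cluster 16 the highest mean count of Ager, 105, with 9.77 in the next cluster. The same cluster of the authors' deposited table has mean counts of 7.57 for Mfap4, 1.12 for Tcf21 and 155 for Sftpc, so it is not limited to cells without fibroblast RNA.

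**Figure D1:**
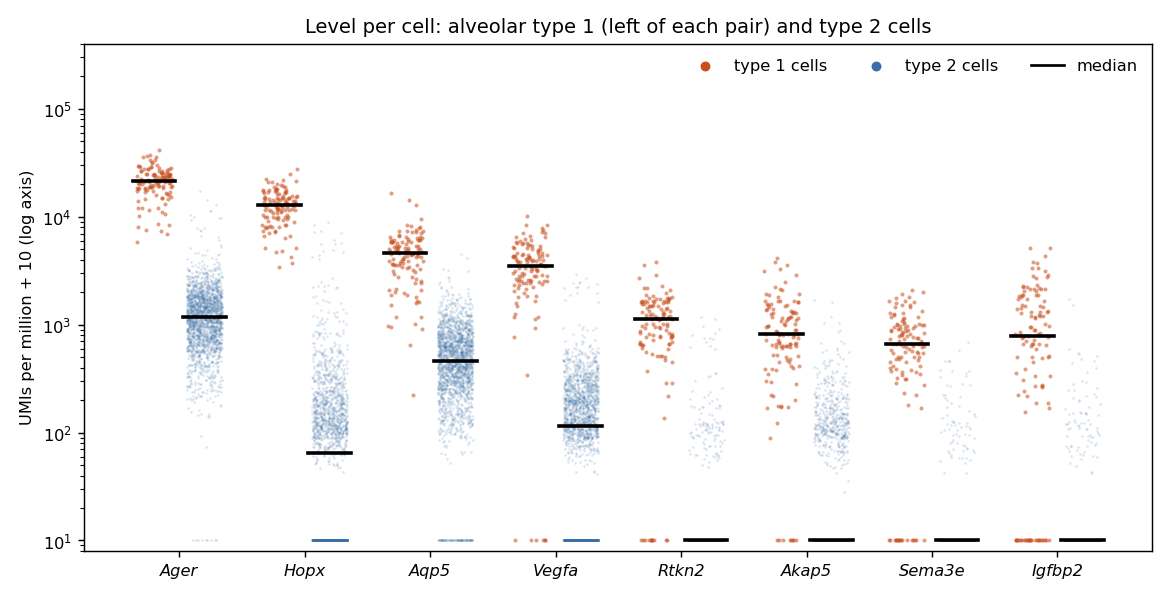
CPM plus 10 in each cell (log axis) for 8 genes, with the 121 type 1 cells left of the 2012 type 2 cells in every pair and a bar at the median. Ager and Hopx chose the type 1 cells, and the median of Rtkn2, Akap5, Sema3e and Igfbp2 lies at 0 UMIs in type 2 cells while most type 1 cells lie well above it.

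Type 1 cells were shallower than type 2 cells and split by depth. They held 795661 UMIs, at a median of 6581 per cell (775 to 15493), against 22242496 UMIs and a median of 10100.5 in type 2 cells. Type 1 cells had a median of 2644 genes and 2.54% mitochondrial UMIs, and type 2 cells had 4.10% mitochondrial UMIs. Of the type 1 cells 22 (18.2%, 11.8 to 26.2%) had under 2000 UMIs, against 4 of 2012 type 2 cells (0.199%) and 37 of 6104 fibroblasts (0.606%). Of the 56 cells left out only on Tcf21 and Mfap4, 1 was that shallow. Limits on Tcf21 and Mfap4 are UMI counts, which deeper cells exceed more readily. The type 2 and fibroblast gates need UMIs that shallow cells are less likely to hold, so these shares depend on the gates. Malat1, a long non-coding RNA kept in the nucleus, was at 0 to 11599 CPM in 21 of the 22 shallow type 1 cells and at 173145 in the other one. In the 99 deeper type 1 cells the median of Malat1 was 68569, and 6 of the 99 were under 15000. Among other cells of 2000 UMIs or more, Malat1 was under 15000 in 965 of 2008 type 2 cells and 2264 of 6067 fibroblasts. Its medians there were 15837 and 22755 CPM. Ager, whose level chose the cells, was at 20145 CPM in shallow cells (18486 to 21913) and 21578 CPM in deeper cells (21251 to 21909). Of genes that the rule did not use, Emp2 was at 4192 CPM in shallow and 4108 CPM in deeper cells. Vegfa was at 2300 CPM (1764 to 2949) in shallow and 3933 CPM (3794 to 4075) in deeper cells. Igfbp2 was at 853 CPM in shallow and 1192 CPM in deeper cells. Tmsb4x, which encodes the actin-binding protein thymosin beta 4, was at 35765 CPM in shallow cells and 21437 CPM in deeper cells, and Sftpc was at 2820 CPM in shallow cells and 653 CPM in deeper cells. What sets the shallow cells apart was not tested. Shallow cells hold 26954 of the 795661 type 1 UMIs, so summed levels below rest mainly on the deeper cells.

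**Figure D2:**
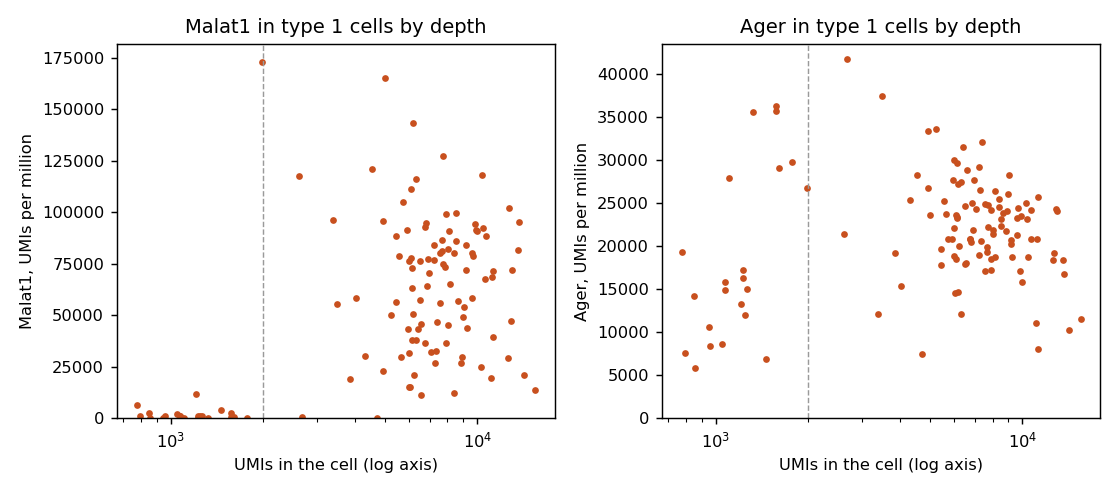
Malat1 (left) and Ager (right) in CPM against total UMIs (log axis) in each of the 121 type 1 cells, with a dashed line at 2000 UMIs. Malat1 lies at 11599 CPM or less in 21 of the 22 cells left of the line. Ager, whose level chose the cells, spans a similar range on both sides.

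Markers of mesothelial, endothelial, leukocyte and basal cells sat in few type 1 cells. UMIs of 6 mesothelial markers occurred in 14 of 121 cells, and 89.1% of them in 3 cells. Endothelial markers occurred in 13 cells and leukocyte markers in 14, with Ptprc and S100a8 at 0. Basal cell markers had 10 UMIs in all, 8 of them in 1 cell. The 12 fibroblast markers summed to 1454 CPM in type 1 cells (0 to 7538 in single cells), 5601 CPM in type 2 cells and 59517 CPM in fibroblasts, gated on Col1a2 without Epcam. UMIs of those 12 fibroblast markers occurred in 116 of 121 type 1 cells. In type 1 cells most of them were of Gsn, a gelsolin gene expressed well beyond fibroblasts, at 985 CPM. Markers of club or secretory cells occurred in 92 type 1 cells, 41 of which held 3 or more UMIs, and summed to 415 CPM in type 1, 2374 CPM in type 2 cells and 415 CPM in fibroblasts. Of the type 2 cells 246 (12.2%) were called doublets by Scrublet, against 2 type 1 cells (1.65%), and type 2 cells as a set held Tcf21 at 54.4 CPM. For 106 of 495 list or named genes, the ratio was over 1.5 times higher against the 1637 type 2 cells that meet the same limits on Tcf21 and Mfap4, called limited type 2 cells below, and for none was it over 1.5 times lower. Where the ratio of a gene named below moved that far, the ratio against limited type 2 cells is given too.

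Across all genes, type 1 cells differed widely from type 2 cells in both directions. Of the 12343 measured genes, 2811 (22.8%) reached a ratio of 2 and 2039 (16.5%) lay at 0.5 or less, and 2579 (20.9%) and 1530 (12.4%) also had an interval on that side of 1. The median ratio was 1.22 (0.28 on the log2 scale), while 16 surfactant and other type 2 identity genes took 24.4% of type 2 UMIs and 0.142% of type 1 UMIs. With those genes and the 7 rule genes left out of the totals, 1719 genes reached a ratio of 2 and 2713 lay at 0.5 or less, so the balance of higher to lower genes moves with the scaling. A ratio of 10 or more, with its interval above 1, was found for 217 genes, and a ratio of 0.1 or less, with its interval below 1, for 322.

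Igfbp2, which encodes a secreted binding protein for insulin-like growth factors, had the highest ratio. It was at 0 UMIs in 26 of 121 type 1 cells, at a median of 775 CPM and at 5161 in the highest cell, whereas 4.13% of type 2 cells had a UMI. Its summed level was 1180.15 CPM in type 1 and 12.2 CPM in type 2 cells, a ratio of 96.9 (84.5 to 111). After every cell was thinned to 2000 UMIs, Igfbp2 had a UMI in 66.7% of type 1 cells (56.5 to 75.8%) and in 0.946% of type 2 cells. Igfbp2 thus separated the sets as sums, while single type 1 cells ranged from none to well above the set level.

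The other genes of highest ratio are given here with what each is known to encode. Sema3e and Sema3a, secreted semaphorins that guide growing axons and vessels, had ratios of 92.1 (78.1 to 109) and 68.3 (54.8 to 85.6). Sema3e had a UMI in 104 type 1 cells and ran up to 2074 CPM, with a median of 650. Nt5e, the ecto-nucleotidase CD73, had a ratio of 83.3 (65.9 to 106), and Bdnf, brain-derived neurotrophic factor, one of 68.7 (55.7 to 85.1) at 392 CPM in type 1 cells. Col4a3, a basement membrane collagen chain, was at 1288 CPM in type 1 and 26.6 CPM in type 2 cells. Spock2, a secreted proteoglycan, was at 826 CPM in type 1 and 17.4 CPM in type 2 cells. Popdc3, Cttnbp2, Rasgrf2, Stx11, Pxdc1 and Ptpre also belonged to the 15 highest, with ratios of 47.8 to 86.9. All 15 genes were highest in type 1 cells among type 1, type 2, fibroblast, ciliated, club and mesothelial sets, and at least 2-fold above each of the others.

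**Figure D3:**
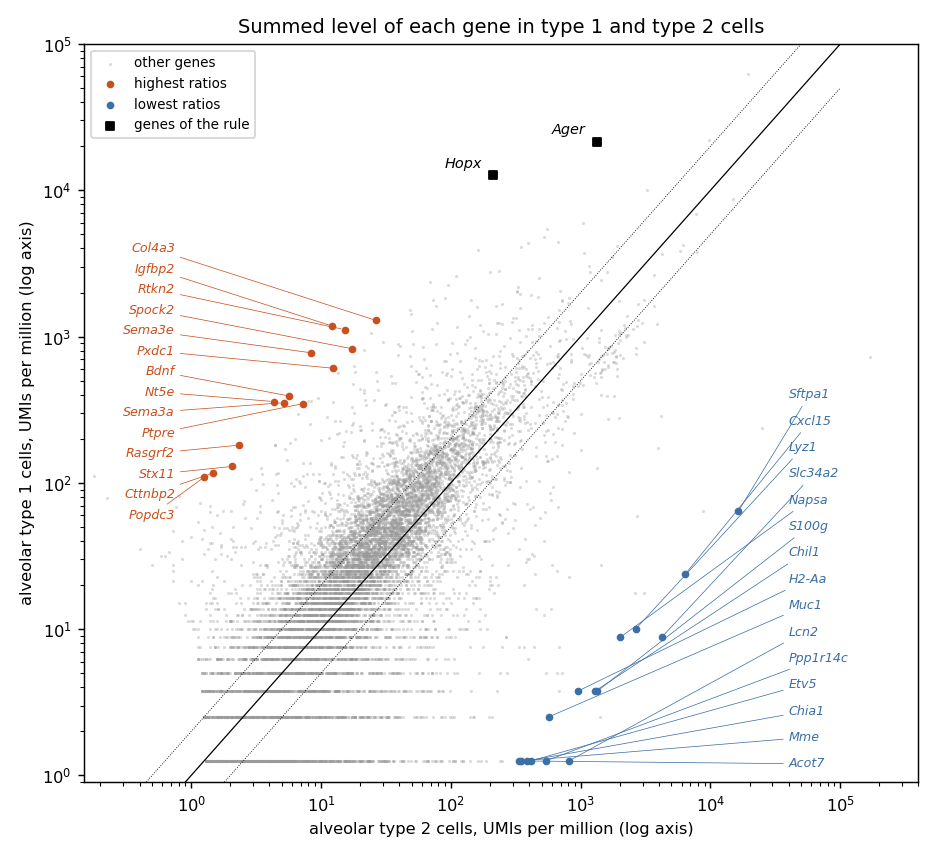
Summed level of each gene in type 1 cells (vertical) against type 2 cells (horizontal), in CPM on log axes, with 14 of the 15 highest and all 15 lowest ratios named; the solid line marks equal levels and the dotted lines a ratio of 2 and of 0.5. The 14 highest genes drawn lie between 109 and 1288 CPM in type 1 cells, and the 15 lowest reach at most 64.1 CPM in them.

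The 15 lowest ratios included genes of surfactant, secretion and antigen presentation. Lcn2, which encodes the iron-scavenging protein lipocalin 2, had 1 UMI in all type 1 cells and 812 CPM in type 2 cells, a ratio of 0.00155 (3.92e-05 to 0.00863). Slc34a2, a phosphate transporter of type 2 cells, was at 8.80 CPM in type 1 and 4207 CPM in type 2 cells, a ratio of 0.00209 (0.000841 to 0.00431). Sftpa1, surfactant protein A, was at 64.1 CPM in type 1 and 16416 CPM in type 2 cells. The others were Ppp1r14c, S100g, Chil1, Etv5, Chia1, Mme, Cxcl15, Acot7, Lyz1, H2-Aa, Napsa and Muc1, each at 23.9 CPM or less in type 1 cells. Egfl6, a secreted protein with EGF-like repeats, had no UMI in type 1 cells and 334 CPM in type 2 cells. Set at 3 UMIs over all type 1 cells, its ratio would be 0.0113, an upper limit.

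Several type 2 transcripts in type 1 cells were near the level that fibroblasts carried. All 14 measured genes of the type 2 identity list, which leaves out Sftpc and Lamp3, lay at a ratio of 0.5 or less, and their median was 0.00494. Sftpc was at 726 CPM in type 1 cells, against 644 CPM in 6047 fibroblasts that do not pass the type 2 rule, a cell type that should lack surfactant genes, which makes a ratio of 1.13 (1.04 to 1.22). Of the 16 list genes 11 were above the fibroblast level, 5 of them with an interval above 1. Abca3, the lipid transporter of lamellar bodies, was at 118 CPM in type 1 cells and 23.4 CPM in those fibroblasts, a ratio of 5.06 (4.06 to 6.25). Lpcat1, which remodels surfactant phospholipid, was at 126 CPM in type 1 cells and 25.5 CPM in those fibroblasts, a ratio of 4.93 (3.98 to 6.04). Abca3 and Lpcat1 were thus above the fibroblast level in type 1 cells, though at 0.144-fold and 0.0935-fold of type 2 cells. Sftpc was at 2820 CPM in shallow type 1 cells (76 UMIs in 22 cells) and 653 CPM in deeper ones (502 UMIs in 99 cells). Shallow cells have smaller totals to divide by, so this difference in CPM does not show whether the level is a fixed background. Whether the type 2 transcripts of type 1 cells are free RNA was not tested. After thinning, Lpcat1 had a UMI in 18.2% of type 1 cells (11.1 to 27.2%) and in 5.57% of all gated fibroblasts.

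Lists of genes for other functions differed between the sets to unequal degrees. For each list the members past a ratio of 2 or of 0.5 are counted, to be read against the 22.8% and 16.5% of all genes that pass.

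**Figure D4:**
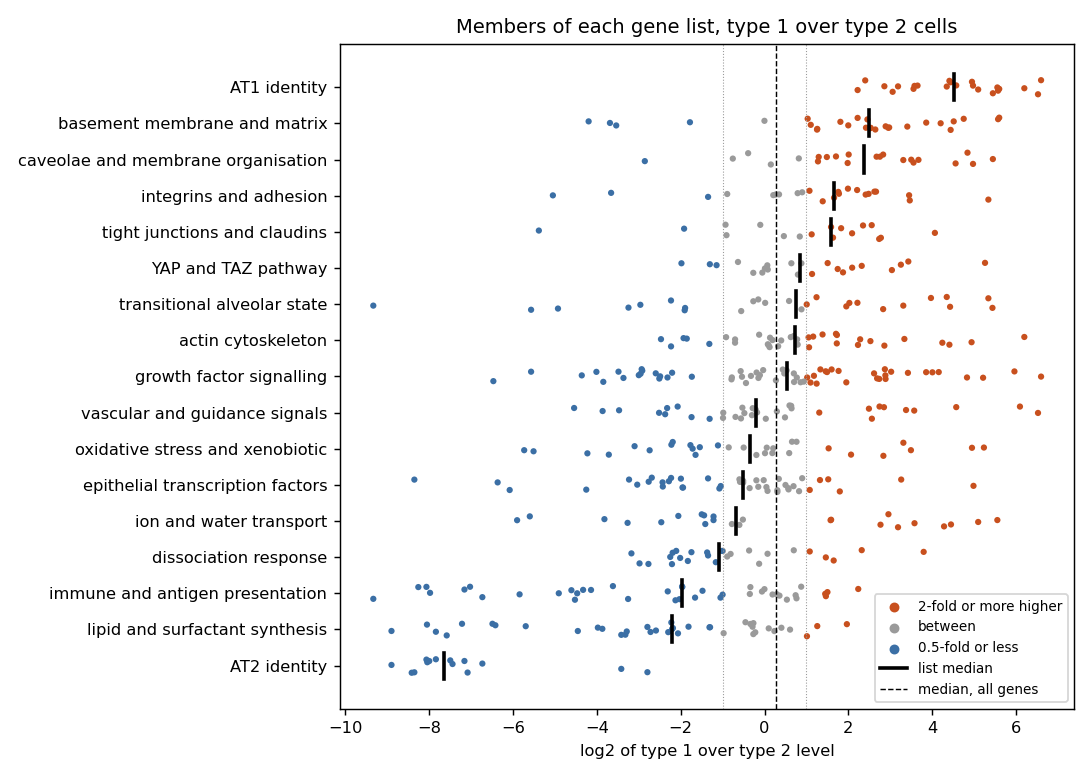
Log2 of the type 1 over type 2 level for each measured member of 17 gene lists, coloured by a ratio of 2 or more, 0.5 or less, or between, with a bar at the list median and a dashed line at the median of all genes (0.28). Lists for type 1 identity, basement membrane and caveolae have median ratios above 5, and those for type 2 identity, lipid synthesis and immune genes have median ratios below 0.3.

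Basement membrane genes were among those furthest above type 2 cells. Of 29 measured members, 23 reached a ratio of 2 and 4 lay at 0.5 or less, and the list median was 5.61. The chains of the collagen IV network that replaces the embryonic one in lung and kidney were among the highest, with ratios of 48.5 (43.8 to 53.7) for Col4a3, 21.7 (19.8 to 23.7) for Col4a4 and 14.5 (12.5 to 16.7) for Col4a5. Against limited type 2 cells Col4a5 was at 22.1. Col4a1 and Col4a2, the chains found in nearly all basement membranes, had ratios of 3.51 (3.21 to 3.82) and 5.78 (5.26 to 6.34). Among laminin chains, Lama3 and Lamb3 had ratios of 26.9 (23.3 to 31.1) and 6.25 (5.49 to 7.09). Agrn, the proteoglycan agrin, was at 499 CPM in type 1 and 27.1 CPM in type 2 cells. Fbln5, an elastic fibre glycoprotein, was at 887 CPM in type 1 and 38.8 CPM in type 2 cells, a ratio of 22.8, which was 70.6 against limited type 2 cells. The 4 members that were lower, Lama4, Lamb1, Nid1 and Col18a1, were at 1.26 to 5.03 CPM in type 1 cells. Their ratios were 0.0545 to 0.291, but against limited type 2 cells they were 0.436 for Lama4, 0.872 for Lamb1, 1.32 for Nid1 and 0.650 for Col18a1.

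Genes of integrins and adhesion molecules, not all of which bind such a matrix, were also mostly higher. Of 24 measured members, 14 reached a ratio of 2 and 3 lay at 0.5 or less, and the list median was 3.16. Itgb6, the partner of Itgav in the integrin that activates latent TGF-beta, was at 381 CPM in type 1 and 9.40 CPM in type 2 cells, a ratio of 40.5 (33.9 to 48.6). Itga3, the laminin-binding integrin chain, was at 341 CPM in type 1 and 30.8 CPM in type 2 cells. Nectin3 and Cd151, a junction protein and a tetraspanin partner of Itga3, had ratios of 10.9 and 6.32. Cd44, a hyaluronan receptor, was lower, at 2.51 CPM in type 1 and 83.3 CPM in type 2 cells. Itga6 had a ratio of 0.393 (0.169 to 0.780). Itga8, a stromal integrin chain, was at 0.0790, but at 0.931 against limited type 2 cells.

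Caveolae are small membrane pits abundant in type 1 cells, and 17 of 23 measured genes of the caveolae and membrane list reached a ratio of 2, around a list median of 5.20. Cav1, the main caveolar coat protein, was at 1522 CPM in type 1 and 48.4 CPM in type 2 cells, a ratio of 31.4 (28.9 to 34.2) that was 59.1 against limited type 2 cells. Cavin2 and Cav2 had ratios of 28.7 (26.4 to 31.2) and 12.8 (11.4 to 14.2), and Cavin2 was at 47.5 against limited type 2 cells. Pdpn, the mucin-type glycoprotein of the apical type 1 membrane, had a ratio of 43.6 (39.1 to 48.7). Pmp22 and Emp2, related 4-span membrane proteins, had ratios of 23.6 (22.2 to 25.0) and 11.8 (11.3 to 12.2), and Pmp22 was at 59.1 against limited type 2 cells. Emp1, of the same family, was the only one of the list at most 0.5-fold, at 7.54 CPM in type 1 and 54.6 CPM in type 2 cells, a ratio of 0.138, which was 0.352 against limited type 2 cells. S100a10, an annexin partner, had a ratio of 1.11 (0.987 to 1.24).

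Junction genes were mostly higher, with one claudin far lower. Of 18 measured members, 10 reached a ratio of 2 and 2 lay at 0.5 or less, and the list median was 3.00. Cldn18, the main alveolar claudin, was at 3745 CPM in type 1 and 1055 CPM in type 2 cells, a ratio of 3.55 (3.41 to 3.69). Cldn3 was at 12.6 CPM in type 1 and 525 CPM in type 2 cells, a ratio of 0.0239 (0.0115 to 0.0440). Pard6b, a polarity scaffold, had a ratio of 16.7 (14.2 to 19.7). F11r and Ocln, a junctional adhesion molecule and occludin, had ratios of 6.85 (6.26 to 7.49) and 6.66 (5.31 to 8.29).

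Ion and water transport genes split. Of 24 measured members, 10 reached a ratio of 2 and 11 lay at 0.5 or less, and the list median was 0.621. The 3 subunits of the epithelial sodium channel were all higher, with ratios of 47.0 (40.6 to 54.6) for Scnn1g, 21.8 (18.9 to 25.2) for Scnn1b and 7.76 (7.04 to 8.54) for Scnn1a. Their levels in type 1 cells were 611, 435 and 682 CPM in the same order. Aqp5, the apical water channel, had a UMI in all 121 type 1 cells, ran from 212 to 16581 CPM, and had a ratio of 9.09 (8.76 to 9.43). Clic5 and Clic3, of the chloride intracellular channel family, had ratios of 34.2 (32.0 to 36.6) and 11.9 (11.4 to 12.6). The chloride carriers Cftr and Slc26a9 were at 5.03 and 1.26 CPM in type 1 cells, against 71.0 and 75.3 CPM in type 2 cells. Atp1b1, a sodium pump subunit, had a ratio of 0.368 (0.322 to 0.419), and Car8, a carbonic anhydrase relative, one of 0.0206 (0.00756 to 0.0449).

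Cytoskeletal genes and genes of the YAP and TAZ pathway, which relays cell stretch and crowding to the nucleus, were closer to the background. Of 36 actin cytoskeleton genes, 16 reached a ratio of 2 and 5 lay at 0.5 or less, and the list median was 1.67. Akap2, a kinase A anchor, and Arhgef26, a nucleotide exchange factor, had ratios of 30.7 (25.0 to 37.7) and 18.9 (16.1 to 22.2), and Akap2 was at 47.6 against limited type 2 cells. Cnn3 and Myh10 had ratios of 0.276 and 0.262, which were 0.976 and 0.755 against limited type 2 cells. Of 23 pathway genes, 10 reached a ratio of 2 and 3 lay at 0.5 or less, and the list median was 1.79. The target genes Ankrd1, Ctgf and Cyr61 had ratios of 38.3 (24.3 to 61.1), 8.22 (7.10 to 9.49) and 4.99 (4.66 to 5.34). Against limited type 2 cells Ctgf was at 59.5 and Cyr61 at 21.8. Ankrd1 had a UMI in 33 of 121 type 1 cells. Tead1, the DNA-binding partner, was at 612 CPM in type 1 and 64.2 CPM in type 2 cells, a ratio of 9.53 (8.58 to 10.6). The transcript of Yap1 itself had a ratio of 0.405 (0.208 to 0.711) at 15.1 CPM in type 1 cells, and that of Wwtr1, which encodes TAZ, had a ratio of 1.74 (1.37 to 2.18).

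Type 1 cells carried a set of transcripts for secreted signals. Vegfa, the main growth factor of vascular endothelium, was their 16th most abundant transcript, at 3877 CPM against 163 CPM in type 2 cells, a ratio of 23.8 (22.7 to 25.0). It was at 0 in 6 of 121 type 1 cells, at a median of 3524 CPM and at 10096 in the highest cell. Vegfa was at 124 CPM in fibroblasts, 23.7 CPM in ciliated cells and 29.2 CPM in mesothelial cells, so type 1 cells had the highest level of the 6 sets. Among 36 vascular and guidance genes, 10 reached a ratio of 2 and 9 lay at 0.5 or less, and the list median was 0.863. Ntn4, a basement membrane netrin, had a ratio of 11.9 (9.20 to 15.3), which was 18.8 against limited type 2 cells. Slit2 and Ntn1 each had 1 UMI in type 1 cells, with ratios of 0.0687 and 0.0902 that were 0.233 and 0.293 against limited type 2 cells.

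Growth factor genes split in a similar way. Of 62 measured members, 25 reached a ratio of 2 and 17 lay at 0.5 or less, and the list median was 1.44. The Wnt ligands Wnt7a and Wnt3a had ratios of 62.4 (38.6 to 103) and 28.5 (19.3 to 41.9), at 72.9 and 71.6 CPM in type 1 cells. Each had a UMI in a minority of type 1 cells, 47 for Wnt7a and 41 for Wnt3a. Fgf18, a fibroblast growth factor, had a ratio of 37.1 (26.5 to 52.2). Pdgfa, the ligand that acts on alveolar fibroblasts and myofibroblasts, was at 1246 CPM in type 1 and 77.6 CPM in type 2 cells, a ratio of 16.1 (14.8 to 17.4), and was at 58.1 CPM in fibroblasts. Shh, the hedgehog ligand, had a UMI in 14 of 121 type 1 cells, at 17.6 CPM against 8.23 CPM in type 2 cells, a ratio of 2.14 (1.15 to 3.68). Ptch1, the hedgehog receptor and target gene, was at 90.5 CPM in type 1, 32.9 CPM in type 2 and 168 CPM in fibroblasts, a type 1 over type 2 ratio of 2.75 that was 4.61 against limited type 2 cells. Areg, an EGF receptor ligand, and Bmp3 were lower, with ratios of 0.0210 (0.00573 to 0.0539) and 0.0487 (0.00589 to 0.176). Fgfr2, the receptor for fibroblast FGF signals in type 2 cells, had a ratio of 0.217 (0.157 to 0.292), and Egfr one of 10.7 (8.20 to 13.9), which was 17.7 against limited type 2 cells. Igfbp5 had a ratio of 6.12, or 9.83 against limited type 2 cells, but it was at 0 in 113 of 121 type 1 cells and at 14236 CPM in 1 cell.

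Transcription factors were fewer on the high side. Of 43 measured genes, which leaves out Hopx, 6 reached a ratio of 2 and 18 lay at 0.5 or less, and the list median was 0.702. The count at 0.5 or less was 10 with no limit on Tcf21 and Mfap4 in type 1 cells. It was 11 against the 768 type 2 cells with no UMI of 5 fibroblast genes. Myrf, a membrane-bound factor, had a ratio of 31.7 (20.8 to 48.4) at 64.1 CPM in type 1 cells. Id4, an inhibitor of helix-loop-helix factors, and Gata6 had ratios of 9.58 (7.03 to 12.9) and 3.47 (3.00 to 4.01), and Id4 was at 14.99 against limited type 2 cells. Nkx2-1, the lineage factor of lung epithelium, was at 455 CPM in type 1 and 282 CPM in type 2 cells, a ratio of 1.61 (1.45 to 1.80). The factors of the type 2 state Etv5 and Cebpa had 1 and 2 UMIs in all type 1 cells, against 412 and 208 CPM in type 2 cells. Elf5 had none, which puts it at 0.0524-fold of type 2 cells or less against the 3-UMI floor. Sox2, an airway factor, had a ratio of 2.87 on 4 UMIs (0.744 to 7.95), and 0.800 without the 9 type 1 cells that held 3 or more UMIs of mesothelial, endothelial, leukocyte or basal markers.

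Genes of the transitional alveolar state, described in mouse lung injury between type 2 and type 1 cells, split as well. Of 27 measured members, 12 reached a ratio of 2 and 8 lay at 0.5 or less, and the list median was 1.67. Cdkn2b, a cell-cycle inhibitor, had a ratio of 43.4 (35.9 to 52.4), and the keratins Krt7 and Krt19 had ratios of 20.4 (19.0 to 21.8) and 15.7, the second at 1124 CPM in type 1 and 71.7 CPM in type 2 cells. Krt8, the keratin most used to mark that state, had a ratio of 1.84 (1.68 to 2.02). Ccnd1, a cell-cycle cyclin, and Nupr1, a stress-response gene, were lower, with ratios of 0.0328 (0.0132 to 0.0677) and 0.105 (0.0700 to 0.152). Cdkn1a, another cell-cycle inhibitor, had a ratio of 0.267 (0.172 to 0.395).

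Lipid and immune genes were lower in type 1 cells as groups. Of 41 lipid and surfactant genes, 3 reached a ratio of 2 and 25 lay at 0.5 or less, and the list median was 0.217. Scd1 and Scd2, paralogous desaturases of fatty acids, differed in direction, with ratios of 0.00671 (0.00367 to 0.0113) and 2.39 (2.24 to 2.55), the second being 1.87 without type 2 identity genes in the totals. Fasn, fatty acid synthase, was at 27.6 CPM in type 1 and 607 CPM in type 2 cells. Chpt1, of phosphatidylcholine synthesis, had a ratio of 3.90 (3.45 to 4.40). Of 40 immune genes, 4 reached a ratio of 2 and 25 lay at 0.5 or less, and the list median was 0.256. The count that reached a ratio of 2 was 8 against limited type 2 cells. It was 2 without the 9 type 1 cells with other types' markers. The class II antigen presentation genes H2-Aa, H2-Ab1 and Cd74 had ratios of 0.00396, 0.00767 and 0.0435, whereas the class I gene H2-D1 had a ratio of 1.45 (1.35 to 1.55). Cxcl16, a membrane-bound chemokine, had a ratio of 4.71 (4.06 to 5.45). Cxcl2 had a ratio of 2.83, but all of its UMIs lay in 1 type 1 cell, and the ratio was 0.231 without the 9 cells with other types' markers.

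Oxidant defence genes held a few very high members. Of 32 measured members, 7 reached a ratio of 2 and 13 lay at 0.5 or less, and the list median was 0.791. With no limit on Tcf21 and Mfap4 in type 1 cells these counts were 11 and 8, so their balance depends on those limits. Against the 768 type 2 cells with no UMI of 5 fibroblast genes, 12 reached a ratio of 2. Prdx6, a peroxiredoxin that also acts on phospholipids, was at 4390.1 CPM in type 1 and 390 CPM in type 2 cells, and was found in all 121 type 1 cells. Cyp4b1 and Cyp2b10, cytochrome P450 enzymes, had ratios of 37.6 (33.4 to 42.5) and 30.9 (27.8 to 34.4). Sec14l3, a lipid-binding protein, was at 1585 CPM in type 1, 160 CPM in type 2 and 2493 CPM in ciliated cells. Sec14l3 and Tppp3 were 2 of 8 ciliated markers and held most of that list's UMIs in type 1 cells, where Foxj1 was at 0. Cbr2 and Mgst1, a carbonyl reductase and a glutathione transferase, were lower, with ratios of 0.0219 (0.0161 to 0.0291) and 0.0534 (0.0321 to 0.0834).

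Immediate early genes, which tissue dissociation is known to raise, were mostly lower in the 121 type 1 cells. Of 26 genes, 5 reached a ratio of 2 and 14 lay at 0.5 or less, and the list median was 0.471. With no limit on Tcf21 and Mfap4 in type 1 cells, only 1 lay at 0.5 or less, so that count depends on those limits. The list summed to 11761 CPM in the 121 type 1 cells and 15088 CPM in type 2 cells. It summed to 27162 CPM in the 56 cells that failed only those limits. Fos was at 1027 CPM in type 1, 2299 CPM in type 2 and 7225 CPM in fibroblasts, and at 0 in 39 of 121 type 1 cells. Egr1 and Nr4a1 had ratios of 0.219 (0.195 to 0.244) and 0.111 (0.0761 to 0.155), and Nr4a1 was at 0.184 against limited type 2 cells. Ier3 was the highest of the 5 genes that reached a ratio of 2, at 2780.1 CPM in type 1 and 200 CPM in type 2 cells. Its ratio was 13.9 (13.2 to 14.6), or 21.3 against limited type 2 cells.

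Type 1 genes differed in how evenly cells carried them. For each gene, the coefficient of variation over the 121 cells was set beside the one that counting alone would give at each cell's depth. Emp2 and Prdx6 had coefficients of 0.393 and 0.347. The coefficient was 0.527 for Vegfa, against 0.267 from counting. Igfbp2 had 1.03 against 0.485, Cyr61 had 1.13 against 0.475 and Fos had 1.30 against 0.519. Malat1 had 0.725 against 0.0664, the largest excess among these, and 21 of the 22 shallow cells lay at 11599 CPM or less. Tgfbr2, a TGF-beta receptor, had 0.970 against 1.09 from counting, so its spread was no wider than counting gives. Its type 1 over type 2 ratio was 2.81, or 4.26 against limited type 2 cells. Depth differs between the cells and takes part in these coefficients.

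Set against other sorted cells, most genes well above type 2 cells were also highest in type 1 cells. Of the 217 genes with a ratio of 10 or more, 186 (85.7%) were highest in type 1 cells among the 6 sets, and 156 (71.9%) were at least 2-fold above each other set. Of the other 31 genes, 20 were highest in mesothelial cells, 10 in ciliated cells and 1 in club cells. Among all 2579 genes with a ratio of 2 or more and an interval above 1, 1896 (73.5%) were highest in type 1 cells. At least 2-fold above each other set were 734 of the 2579 (28.5%). Both groups were chosen as higher than type 2 cells, so type 2 cells could not be highest and the 2-fold margin over them was given. Cav1 was higher in type 1 cells, at 1522 CPM, than in mesothelial cells, which are likewise flat, at 1389 CPM. Igfbp6, which is not one of the 217 genes, was at 1620.04 CPM in type 1, 7689 CPM in mesothelial cells and 1737 CPM in fibroblasts. Its type 1 over type 2 ratio of 7.31 was 13.1 against limited type 2 cells. The gates for these sets use 1 or 2 genes each, and 3 cells of the mesothelial gate are among the type 1 cells.

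**Figure D5:**
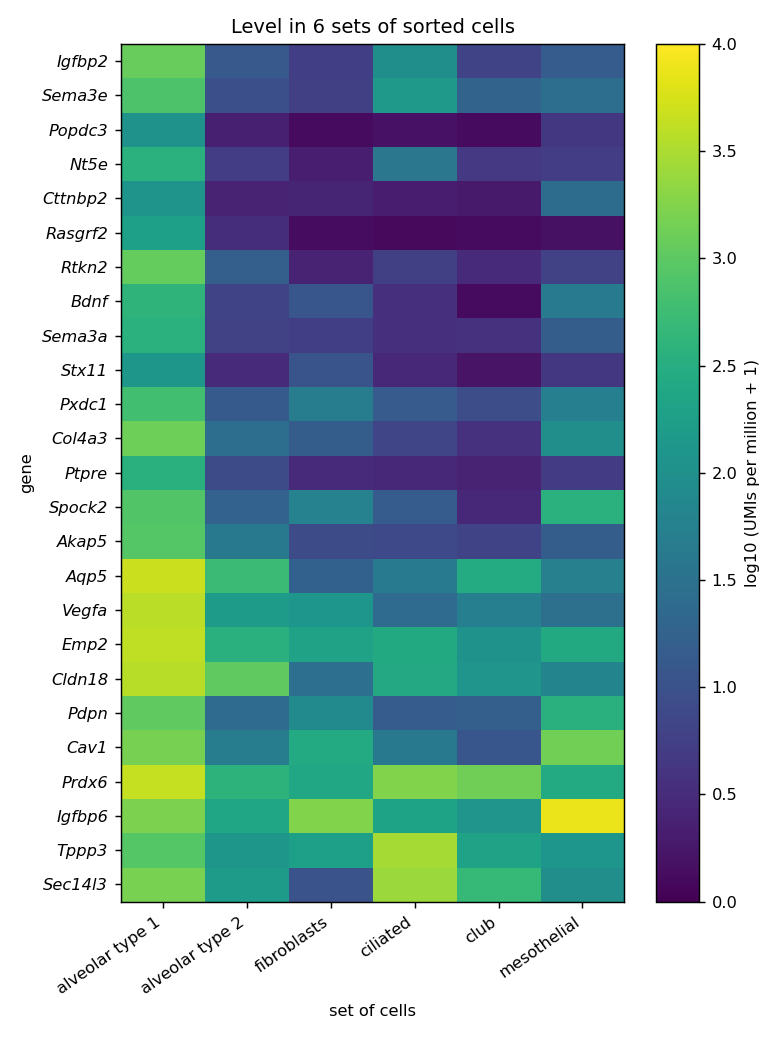
Log10 of CPM plus 1 for 25 genes (14 of the 15 highest ratios, then others named in the text) in 6 sets of cells, type 1 first. The 14 upper genes are brightest in type 1 cells, while Igfbp6 is brightest in mesothelial and Tppp3 and Sec14l3 in ciliated cells.

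The 56 cells that failed only the limits on Tcf21 and Mfap4 carried type 1 transcripts at lower summed levels. They were deeper, at a median of 11730 UMIs and 3898 genes against 6581 UMIs and 2644 genes in the 121 cells. Those limits are UMI counts, which deeper cells exceed more readily, so the rule itself favours shallower cells. In those 56 cells Rtkn2 was at 668 CPM, Igfbp2 at 706 CPM and Vegfa at 2483 CPM. Scrublet called 4 of the 56 doublets.

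The Egfp reporter transcript was lower in type 1 cells than in fibroblasts. Egfp, which the mTmG reporter makes after recombination, was at 124 CPM in type 1, 200 CPM in type 2 and 1406 CPM in fibroblasts. The type 1 over type 2 ratio was 0.623 (0.505 to 0.761), but 1.40 (1.13 to 1.72) against limited type 2 cells, which were at 88.7 CPM. It had a UMI in 24 of 121 type 1 cells (19.8%) and in 53.7% of type 2 cells as deposited, and in 11.1% of type 1 cells after thinning (5.68 to 19.0%), against 20.2% of type 2 cells and 51.8% of fibroblasts. TdTomato, made before recombination, was at 37.7 CPM in type 1 and 31.2 CPM in type 2 cells, a ratio of 1.21 (0.808 to 1.74). Egfp reached 3997 CPM in the highest type 1 cell, and 4 type 1 cells lay above the 95th percentile of type 2 cells, 657 CPM. Whether the Egfp UMIs of type 1 cells are free RNA was not tested.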

How the data were processed

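Transcript counts of 4 pooled samples were analysed as 1 sample. The authors' reads went through Cell Ranger 3.0.0 against mm10, as stated in the submitters' processing notes. Raw UMI counts were deposited for 31055 features in 11118 barcodes (85746975 UMIs). The annotation release is not given in the sources used here, and the labels differ on the kit version and the strain, so neither is stated. A cluster table deposited by the authors lists, per the file headers, a mean count per cluster (used as a score, since its scaling is not given), and also log2 fold changes with adjusted p-values. Only its mean counts are printed. A deposited demultiplexing table gave 65156149 to 74901791 reads per sample.

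For each set of cells the UMIs were added up and scaled to CPM, with exact Poisson intervals. Ratios have exact conditional binomial intervals and shares Clopper-Pearson intervals, all at 95%. A gene was measured when the sets together held 30 or more of its UMIs, and called at a ratio of 2 or more or 0.5 or less, leaving out 7 rule genes (Ager, Hopx, Tcf21, Mfap4, Sftpc, Ptprc, Lamp3). A gene at 0 was set against 3 UMIs over the set, and a list's median takes it at that bound, leaving out 0 values with no usable bound. For shares, cells were thinned to 2000 UMIs, which left 99 type 1 cells (22 left out) and 2008 type 2 cells. Other sets were gated on Col1a2 without Epcam (fibroblasts), Foxj1 and Tppp3 (ciliated), Scgb1a1 (club), and Msln and Upk3b (mesothelial).

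Named genes were the 15 highest and 15 lowest ratios with at least 100 UMIs and 50 CPM, the markers, the 4 highest and 4 lowest of each list, and list members at the ends of the level. Further list members and genes of other cell types were named after their values were seen. The rule, its members and the 17 lists (514 genes) were chosen with earlier results of these data known. In simulated sums with counting error only, all genes changed 4-fold were called and 2.19% of unchanged genes passed a ratio of 2. The changed genes were drawn only from those well counted in type 2 cells. How often a 4-fold change is called in rarer genes was therefore not tried. Coordinates are from GENCODE M21. Scrublet in scanpy (expected rate 0.08) called 458 doublets, used only in an alternative. Some genes are not reported here.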

Additional observations from a re-analysis of the deposited data

How the results depend on the processing

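The comparison was repeated under 14 alternatives chosen at the start and 5 added after the data were seen. Of 133 named genes past 2-fold, 103 stayed past it in every alternative that gave a value. The number of type 1 cells was 61 with Mfap4, Col1a2, Col3a1 and Dcn at 0, because fewer cells passed, and 99 to 177 otherwise. Higher genes numbered 1719 with type 2 identity and rule genes left out of the totals, a change made by the scaling. Against the 9 type 2 cells with no Ager UMI there were 1482 higher genes, 379 lower genes and 68 lower list members, with fewer cells and so fewer genes measured. Otherwise higher genes numbered 1918 to 3204, and lower genes 1495 to 2713. With the rule applied to one part of the UMIs and values taken from the other, 2646 genes were higher and 1733 lower. No paired analysis was possible because the samples are pooled in 1 matrix with no map from cells to samples, and for the same reason no sample could be left out.

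With no limit on Tcf21 and Mfap4 in type 1 cells, 7 genes crossed to a ratio above 1, Myh10 (1.47), Cnn3 (1.51), Lamb1 (1.06), Nid1 (1.35), Itga8 (2.07), Angptl4 (2.02) and Slit2 (1.26). Against type 2 cells within the Tcf21 and Mfap4 limits, Axl reached 1.24, Nid1 1.32 and Egfp 1.40, and against 768 type 2 cells with no UMI of 5 fibroblast genes Cnn3 reached 1.39. Without the 9 type 1 cells with other types' markers, Cxcl2 was at 0.231 and Sox2 at 0.800. Cxcl2 was at 0.464 with those 4 fibroblast genes at 0 in type 1 cells, and at 0.221 with Ager at 10000 and Hopx at 6000 or more, where Il18 was at 0.726. Beyond the values shown in the text the causes were not tested. Depth limits genes at 3.77 CPM or less in type 1 cells, where 3 UMIs or fewer were counted, as for Chil1.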
